A study of Mus musculus with 6 samples.

Results

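The genes described here are 32 members of glycolysis and the pentose phosphate pathway, measured in leukaemic B cells of a mouse model of chronic lymphocytic leukaemia (CLL). They were picked by symbol from the pathway, with earlier results of these data known though not used in the rule, and all 32 were found among the 54232 genes of the deposited count table. Of these, 24 passed the filter on low counts and could be tested, out of 10067 genes tested in all. The questions asked of them are which isoenzyme of each family the leukaemia cells use, and how the genes differ after inhibition of casein kinase 1.

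Glycolysis converts glucose to pyruvate through a chain of cytosolic enzymes, and yields ATP and NADH. The pentose phosphate pathway branches off after glucose phosphorylation and supplies NADPH and ribose phosphate for nucleotide synthesis. Many steps are catalysed by isoenzymes from separate genes that differ in tissue distribution and regulation, and B cells are known to take up more glucose once activated.

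Splenic CLL cells were profiled after adoptive transfer of Eµ-TCL1 leukaemia into WT C57BL/6J recipients. CK1i recipients (3 libraries) were dosed orally with PF-670462, which blocks the delta and epsilon forms of casein kinase 1, at 50 mg/kg in PBS with 10% kolliphor. CTRL recipients (3 libraries) were given only the vehicle, PBS with 10% kolliphor. Dosing began on day 5 after transfer and alternated 5 treated with 2 untreated days over 8 weeks.
In Eµ-TCL1 mice the human TCL1 oncogene is driven in B cells by immunoglobulin heavy chain regulatory elements, and the transferred cells of both groups carry it. Donor spleens came from terminal mice, with at least 60% CLL cells among blood leukocytes, and the donor mononuclear cells were 99% CLL cells, per the labels. The recipients were wild type and so kept B cells of their own. The labels do not say how many donors were used, give no age or sex, and do not tie each library to a mouse of its own. The p-values thus reflect variation among these samples only, and it may be technical.

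Libraries held 2472064 to 3105137 counts. On the first principal component (28.0% of the variance) CTRL 1 stood apart, at 31.4, with the other 5 libraries at -12.4 to 4.68. All 8 markers of the B-cell list were detected, with a summed level of 5383 to 5726 counts scaled to a common library size (CPM) in CK1i and 5403 to 5640 CPM in CTRL, although Cd79a, which encodes a B-cell receptor signalling chain, had only 8.88 to 17.6 CPM. The 10 genes of the T-cell list summed to 173 to 247 CPM in CK1i and 189.6 to 299.6 CPM in CTRL, most of it from Cd2, an adhesion receptor gene that mouse B cells also express, with 3589 counts over all 6 libraries. Trac, a T-cell receptor constant region gene, had 99 counts, and Cd3e, Cd3d and Cd3g, which encode the receptor's CD3 chains, had 6, 11 and 8. The 10 genes of the monocyte and macrophage list summed to 35.6 to 45.1 CPM in CK1i and 27.3 to 30.3 CPM in CTRL, with Cd14, Fcgr1 and Mertk at 0 and Csf1r at 6 counts in all. Most of that sum was Cd68, a lysosomal glycoprotein gene (32.8 ± 1.96 CPM for CK1i, 23.3 ± 2.14 CPM for CTRL; SD over 3 libraries each). Of the rest of this list, Itgam had 53 counts in all, Adgre1 29, Lyz2 16, C1qa 2 and C1qb 1. Itgam, the only other tested gene of the list, had a log2 fold change of 0.44 ± 0.52 (SE). The 5 genes of the plasma-cell list summed to 1382, 578 and 1502 CPM in CK1i 1 to 3. In CTRL 1 to 3 they summed to 1512, 1736 and 1052 CPM. Among them Jchain ranged from 282 CPM in CK1i 2 to 1348 CPM in CTRL 2. The part of T cells, monocytes, macrophages or plasma cells in the pathway's values was not tested.

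The libraries read the 3' end of each transcript and not its whole length, so the CPM levels below are not divided by transcript length. They are scaled by the trimmed mean of M values (TMM). In such bulk samples, fewer cells with a transcript and less transcript per cell cannot be told apart.
The 32 members together took 0.226 ± 0.0120% of library counts in CK1i and 0.226 ± 0.0202% in CTRL (SD, n = 3). Aldoa, which encodes the main aldolase, and Taldo1, which encodes transaldolase of the pentose phosphate pathway, had the highest levels, with means over the 6 libraries of 294 and 283 CPM. Their ranges over libraries overlapped, and both lay above that of Pkm (207 CPM), the third in the order. From Pkm to Rpe (52.5 CPM) the range of each gene overlapped that of the next. A gap followed between Rpe and Pfkl (25.1 CPM), another between Aldoc (9.47 CPM) and Eno1 (4.14 CPM), and the last between Pfkm (1.20 CPM) and Pgk1 (0.235 CPM). That last gap rests on very few counts, 20 for Pfkm and 4 for Pgk1 over the 6 libraries.

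**Figure D1:**
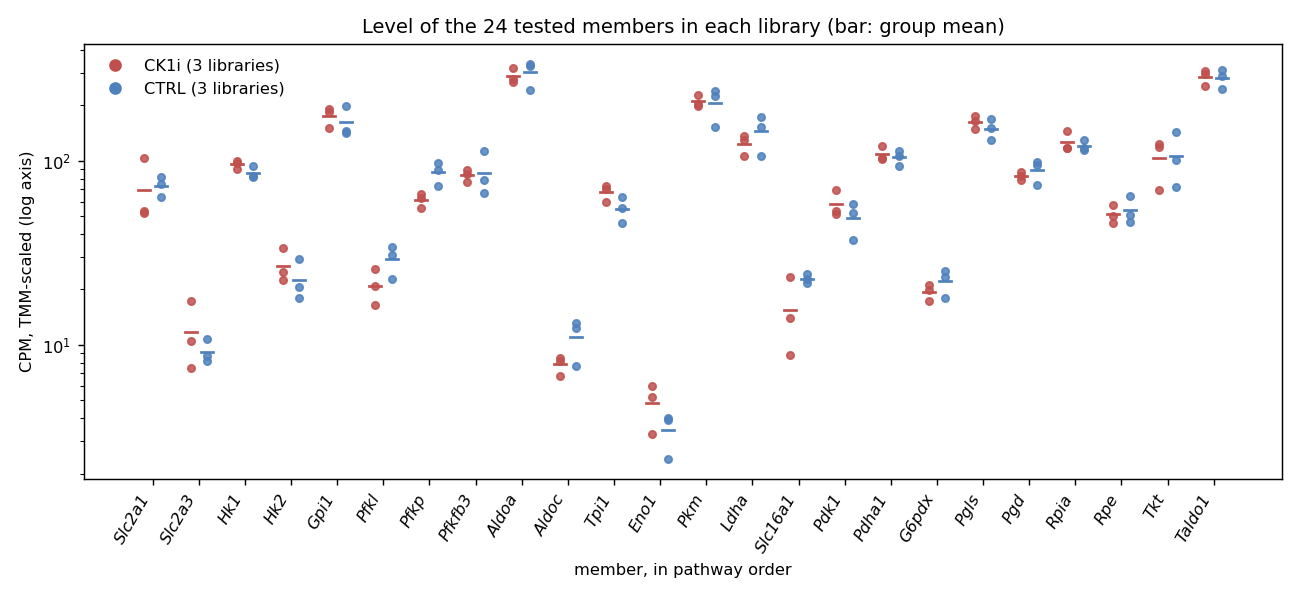
Level of each of the 24 tested members in every library, in TMM-scaled CPM on a log axis, in pathway order, with CK1i libraries left of CTRL libraries and a bar for the mean of each group. Aldoa and Taldo1 average 294 and 283 CPM over the 6 libraries and Eno1 4.14 CPM, and Pfkp is the member whose groups do not overlap.

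Most counts of glucose transporters and hexokinases were those of Slc2a1 and Hk1. Slc2a1 encodes the widely expressed glucose transporter that B cells carry, and Slc2a3 a transporter of higher affinity known from neurons. Slc2a1 had 104, 53.5 and 51.7 CPM in CK1i 1 to 3, against 82.0, 74.2 and 63.1 CPM in CTRL 1 to 3. CK1i 1 was the highest and the other 2 CK1i libraries were the lowest, so the CK1i values enclosed those of CTRL. Slc2a3 had 10.5, 7.50 and 17.2 CPM in CK1i 1 to 3, against 8.16, 10.8 and 8.68 CPM in CTRL 1 to 3, with CK1i 3 highest and the groups overlapping. Counts of Slc2a1 were 3 to 10.0 times those of Slc2a3, and higher in 6 of 6 libraries.

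Hexokinases trap glucose in the cell by phosphorylation; Hk1 is the housekeeping form, Hk2 the form induced in activated and malignant cells, and Hk3 a form of myeloid cells. Hk1 had 99.4, 90.4 and 96.7 CPM in CK1i 1 to 3, against 93.4, 82.6 and 81.1 CPM in CTRL 1 to 3. It was among the steadiest members, with 1.22-fold between its lowest and highest library, and the groups overlapped only through CTRL 1. Hk2 had 22.4, 24.8 and 33.7 CPM in CK1i 1 to 3, against 29.1, 17.96 and 20.7 CPM in CTRL 1 to 3, again overlapping. Hk3 had 1 count in all, in CK1i 2. Counts of Hk1 were 2.87 to 4.6 times those of Hk2.
Gpi1 encodes the isomerase that turns glucose phosphate into fructose phosphate, and ranged from 142 to 198 CPM with overlapping groups.

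Transcripts of phosphofructokinase, the committed step of glycolysis, were mostly those of Pfkp, the platelet-type gene, with Pfkl, the liver-type gene, second and Pfkm, the muscle-type gene, nearly absent. Pfkp had 62.8, 65.6 and 55.3 CPM in CK1i 1 to 3, against 89.5, 73.1 and 97.5 CPM in CTRL 1 to 3. All CK1i libraries lay below all CTRL libraries, which no other tested member showed in either direction; over all tested genes 4.48% had CK1i below CTRL in this way and 9.7% had no overlap in either direction. The log2 fold change was -0.50 ± 0.15 (SE), with an unadjusted p of 0.0057 and an adjusted p of 0.828 by edgeR's quasi-likelihood test, so Pfkp was not called. Leaving out each library in turn gave log2 fold changes of -0.62 to -0.41.
Pfkl had 25.7, 20.9 and 16.4 CPM in CK1i 1 to 3, against 30.9, 22.8 and 34.1 CPM in CTRL 1 to 3. CTRL 2 lay between the CK1i values, so the groups overlapped, and the log2 fold change was -0.47 ± 0.22 (edgeR unadjusted p = 0.049, adjusted p = 0.999). Leaving out each library in turn gave unadjusted p-values from 0.016, without CTRL 2, to 0.18, without CK1i 3 or CTRL 3.
Pfkm had 3, 2 and 2 counts in CK1i 1 to 3, against 7, 4 and 2 counts in CTRL 1 to 3, and was not tested. Although both main genes had lower values in CK1i, the split between them was close: Pfkp took 73.9 ± 3.24% of phosphofructokinase counts in CK1i and 73.9 ± 1.09% in CTRL (SD, 3 libraries each), and had 2.45 to 3.37 times the counts of Pfkl.
The 3' end of Pfkp (chr13:6579768-6648777, minus strand, GRCm38) overlaps that of Pitrm1 on the other strand, and 27.2% of the 75-base windows in the last 500 bases of its transcripts also occur in Pitrm1. Pitrm1 encodes a mitochondrial protease and had a log2 fold change of 0.18 ± 0.22, and 468 counts against 1257 for Pfkp. No source used here gives the strand setting of the counting. The part of these shared bases in the Pfkp values was not tested.
Pfkfb3, whose product makes a fructose bisphosphate that activates phosphofructokinase, had 89.5, 76.3 and 85.02 CPM in CK1i 1 to 3, against 113, 78.2 and 66.8 CPM in CTRL 1 to 3. The CTRL values enclosed those of CK1i.
The 4 genes of this step together took 0.0159 to 0.0175% of library counts in CK1i and 0.0178 to 0.0232% in CTRL. Pfkp is part of this sum, so it is not a separate result. The same shares for uptake and phosphorylation, lower glycolysis, pyruvate and lactate, and the pentose phosphate pathway overlapped between groups.

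The Pfkp promoter is printed because Pfkp was the member with separate groups. It is the RefSeq window of 250 bases before and 50 bases after the annotated start on GRCm38.p6, chr13:6648722-6649021, minus strand, 5′ to 3′. Capitals mark ACGTG and GCGTG, letters found in binding sites of the hypoxia-inducible factors and related proteins, read on either strand.
Pfkp: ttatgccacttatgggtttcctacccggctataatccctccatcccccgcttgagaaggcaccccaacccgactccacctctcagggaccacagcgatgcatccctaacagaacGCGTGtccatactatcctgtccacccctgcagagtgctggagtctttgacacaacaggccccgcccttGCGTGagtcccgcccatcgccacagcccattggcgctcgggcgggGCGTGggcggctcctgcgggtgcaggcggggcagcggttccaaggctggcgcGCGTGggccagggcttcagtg
This window holds 4 GCGTG and 0 ACGTG.

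Aldolase splits fructose bisphosphate, and Aldoa far outweighed Aldoc, a form known from brain. Aldoa had 318, 277 and 265 CPM in CK1i 1 to 3, against 241, 326 and 336 CPM in CTRL 1 to 3, with CTRL 1 lowest and the groups overlapping. Aldoc had 8.23, 8.48 and 6.82 CPM in CK1i 1 to 3, against 12.4, 13.2 and 7.68 CPM in CTRL 1 to 3. Only CTRL 3 lay among the CK1i values of Aldoc, and its log2 fold change was -0.48 ± 0.29 (edgeR unadjusted p = 0.12). Counts of Aldoa were 19.4 to 43.7 times those of Aldoc.

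**Figure D2:**
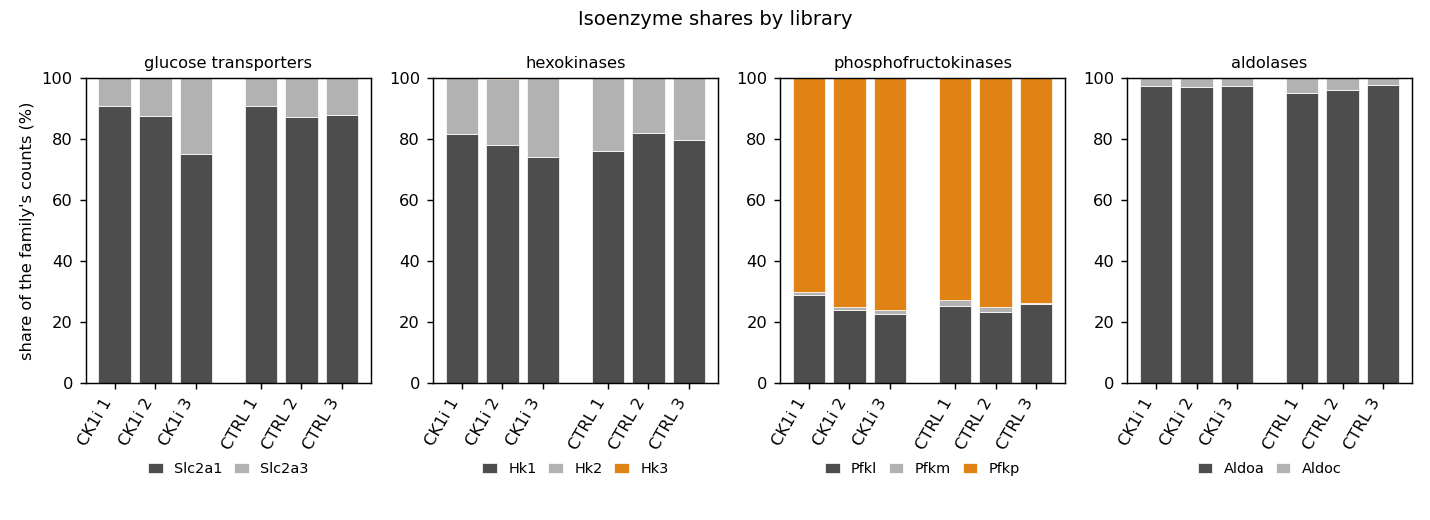
Share of each isoenzyme in the summed counts of its family, in percent, as a stacked bar for each CK1i library and each CTRL library, for glucose transporters, hexokinases, phosphofructokinases and aldolases. In all 6 libraries Slc2a1, Hk1, Pfkp and Aldoa take the largest share, with Slc2a1 lowest in CK1i 3, at 75%.

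The shares of the isoenzymes were compared between groups by an exact two-sided permutation test over the 20 assignments of the libraries, which cannot give a p below 0.1. Slc2a1 made up 84.5 ± 8.36% of glucose transporter counts in CK1i and 88.7 ± 1.94% in CTRL (SD, n = 3, exact p = 0.6). CK1i 3 had 75%, with a Clopper-Pearson 95% interval of 67.8 to 81.3%, against 87.3 to 90.9% in the other 5 libraries. Hk1 made up 78.0 ± 3.74% of hexokinase counts in CK1i and 79.3 ± 2.97% in CTRL (exact p = 0.6, n = 3). Pfkl made up 25.1 ± 3.17% of phosphofructokinase counts in CK1i and 24.8 ± 1.25% in CTRL (exact p = 0.9, n = 3). Aldoa made up 97.3 ± 0.263% of aldolase counts in CK1i and 96.3 ± 1.34% in CTRL (exact p = 0.4, n = 3). Over the 7 families the adjusted p was 0.7 for enolases and 1 for the other 6, but no difference of any size could have passed 0.05 in this design, so these tests do not show whether shares differed. Ldha, at 100% in every library, left no difference to test. The interval covers counting error only.

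Lower glycolysis carries the energy yield, and its members split into genes with high counts and genes with almost none. Tpi1, which encodes the isomerase of the triose phosphates, had 73.0, 70.5 and 59.8 CPM in CK1i 1 to 3, against 55.0, 63.5 and 46.1 CPM in CTRL 1 to 3. CTRL 2 lay above CK1i 3, so the groups overlapped. Its log2 fold change was 0.31 ± 0.16, with an unadjusted p of 0.078 by edgeR, the smallest p among members with a higher value in CK1i. Pkm, the pyruvate kinase gene, had 228, 204 and 197 CPM in CK1i 1 to 3, against 153, 224 and 237 CPM in CTRL 1 to 3, with CTRL 1 the low library.
The Tpi1 promoter is printed as an example of a window with neither motif. Other members with higher values in CK1i had windows of both kinds. For example, 1 Hk1 window had 2 ACGTG and 3 GCGTG, that of Hk2 had 2 ACGTG, and each Eno1 window had 2 GCGTG. The other Hk1 window, the Gpi1 window, 1 Pkm window and 1 Pdk1 window held neither. The RefSeq window of Tpi1 on GRCm38.p6 is chr6:124814109-124814408, minus strand, and holds 0 ACGTG and 0 GCGTG.
Tpi1: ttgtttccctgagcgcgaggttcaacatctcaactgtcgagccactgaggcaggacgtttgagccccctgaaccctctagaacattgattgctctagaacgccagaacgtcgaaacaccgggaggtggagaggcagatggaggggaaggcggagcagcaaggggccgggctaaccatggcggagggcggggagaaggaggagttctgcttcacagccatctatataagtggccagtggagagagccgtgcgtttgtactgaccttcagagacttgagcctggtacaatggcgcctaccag

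Enolase makes phosphoenolpyruvate, and its ubiquitous gene, Eno1, was nearly uncounted. Eno1 had 3.29, 5.22 and 6.02 CPM in CK1i 1 to 3, against 3.90, 2.40 and 4.01 CPM in CTRL 1 to 3 (log2 fold change 0.46 ± 0.41, edgeR unadjusted p = 0.28). Eno2, the neuronal form, had 1.97, 1.30 and 4.01 CPM in CK1i 1 to 3, against 4.61, 2.00 and 3.005 CPM in CTRL 1 to 3. Eno1 made up 62.5, 80.0 and 60.0% of the counts of these 2 genes in CK1i 1 to 3, against 45.8, 54.5 and 57.1% in CTRL 1 to 3. No CK1i share lay below a CTRL share (exact permutation p of 0.1, the lowest the design allows; adjusted p of 0.7), but the shares rested on 11 to 25 counts a library. Eno3, the muscle form and not among the 32, was named after its values were seen: it had 574 counts in all, against 70 for Eno1 and 47 for Eno2, and 30.9 to 39.9 CPM over the libraries.

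Several genes that nearly every cell uses had very few counts. Gapdh, the usual housekeeping control, had 5, 5 and 3 counts in CK1i 1 to 3, against 5, 3 and 4 counts in CTRL 1 to 3. Pgk1, which encodes phosphoglycerate kinase, had 4 counts in all, and Pgam1, which encodes phosphoglycerate mutase, had 27. Ldhb had 0 counts in all 6 libraries, which allows a level of up to 0.176 CPM.
Counting can drop or divide reads that match a near-identical copy elsewhere, and each member was compared with the other annotated genes. Copies of at least 95% identity on the same strand covered 88.0% of the Gapdh transcript and 100% of its last 500 bases, from 80 copies of which 78 are pseudogenes. For Eno1 they covered 85.6% of the transcript and 99.4% of its last 500 bases, from 3 copies.
For Ldhb the values were 76.8% and 61.8%, from 1 copy, while for Pgk1 they were 68.8% and 16.4% and for Pgam1 43.1% and 0%.
Among members with many counts, Pkm had 65.5% of its transcript in copies and 3509 counts, Ldha 55.0% and 2274 counts, and Gpi1 54.6% and 2874 counts. The copies reached 0% of the last 500 bases in Pkm, 3% in Ldha and 25.4% in Gpi1. Copies at 95% identity need not match a read exactly. Exact matches on the same strand were sought for the 75-base windows in the last 500 bases of each transcript. The share found in another gene was 58.6% for Gapdh, 63.3% for Eno1, 18.5% for Ldhb, 1.88% for Pgk1 and 0% for Pgam1. It was 15.7% for Gpi1, 5.46% for Pkm and 4.98% for Ldha. Hk3, Slc16a3, Pfkm and Eno2, the other untested members, matched no copy. The levels of Gapdh, Pgk1, Pgam1, Eno1 and Ldhb are uncertain, and their shares of matched windows differed widely. Why their counts are low, and the part of copies in them, was not tested.

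**Figure D3:**
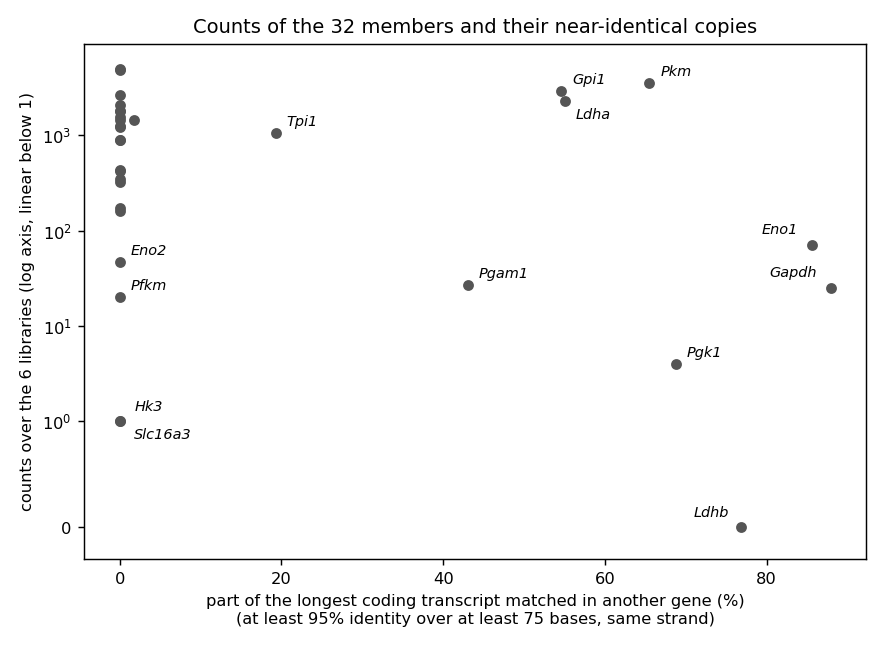
Counts of each of the 32 members over the 6 libraries, on a log axis that is linear below 1, against the percent of its longest coding transcript found in another gene at 95% identity or more. Gapdh and Eno1 lie at 88.0% and 85.6% with 25 and 70 counts, and Ldhb at 76.8% with 0, while Pkm has 3509 counts at 65.5%.

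Pyruvate goes to lactate or to the mitochondria. Ldha, the lactate dehydrogenase gene of glycolytic tissues, had 135, 129.8 and 106 CPM in CK1i 1 to 3, against 106, 153 and 173 CPM in CTRL 1 to 3. CK1i 3 and CTRL 1 were the low libraries and the groups overlapped (log2 fold change -0.22 ± 0.18, edgeR unadjusted p = 0.24). It moved with single CTRL libraries, and was -0.40 without CTRL 1 (edgeR unadjusted p = 0.019, adjusted p = 0.831) and -0.060 without CTRL 3. Ldha took 100% of the counts of the 2 lactate dehydrogenase genes in every library.
Its promoter is printed because it holds more ACGTG than any other member window: 5, with 2 GCGTG and 2 CACGTG. The last of these motifs reads ACGTG on both strands and so counts as a match on each. The RefSeq window on GRCm38.p6 is chr7:46845554-46845853, plus strand.
Ldha: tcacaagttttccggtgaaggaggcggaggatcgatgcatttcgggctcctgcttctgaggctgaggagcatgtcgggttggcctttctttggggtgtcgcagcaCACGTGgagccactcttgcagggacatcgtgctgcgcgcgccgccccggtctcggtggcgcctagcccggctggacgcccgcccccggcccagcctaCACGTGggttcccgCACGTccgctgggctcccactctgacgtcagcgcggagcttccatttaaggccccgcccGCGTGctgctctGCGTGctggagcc
Slc16a1, a lactate and pyruvate transporter gene, had 23.4, 8.81 and 14.0 CPM in CK1i 1 to 3, against 24.1, 21.6 and 22.7 CPM in CTRL 1 to 3. It varied most among the tested members, 2.61-fold from its lowest to its highest library, with CK1i 2 and 3 below and CK1i 1 among the CTRL values. Its log2 fold change was -0.56 ± 0.29 (edgeR unadjusted p = 0.072); without CK1i 2 it was -0.28, and without CK1i 1 it was -1.01 (unadjusted p = 0.0024, adjusted p = 0.496). Gm43581, a transcript within its intron on the same strand, had 760 counts, and Slc16a1 had 0.313 to 0.593 times as many in each library. Gm43581 had a log2 fold change of -0.68 ± 0.34 (edgeR unadjusted p = 0.077), so both had lower values in CK1i; the part of shared reads was not tested. Slc16a3, the lactate exporter of glycolytic cells, had 1 count in all, in CTRL 3.
Pdk1, a kinase gene whose product shuts off pyruvate dehydrogenase, had 51.3, 53.5 and 69.0 CPM in CK1i 1 to 3, against 52.2, 57.9 and 37.1 CPM in CTRL 1 to 3 (log2 fold change 0.24 ± 0.19, edgeR unadjusted p = 0.22). Pdha1, a subunit gene of pyruvate dehydrogenase, ranged from 93.8 to 120.1 CPM, and the groups overlapped.

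All 7 members of the pentose phosphate pathway were tested. G6pdx, the gate of the oxidative branch, had the lowest level, at 17.3 to 25.1 CPM, and Pgls had 5.52 to 10.1 and Pgd 3.17 to 5.28 times its counts. Pgls and Pgd encode the next steps, the lactonase and the phosphogluconate dehydrogenase that yields NADPH again. Rpia, which encodes the ribose phosphate isomerase, had 117, 117 and 144 CPM in CK1i 1 to 3, against 114, 129.7 and 117 CPM in CTRL 1 to 3.
Taldo1, of the branch that returns carbon to glycolysis, had 307, 295 and 254 CPM in CK1i 1 to 3, against 245, 286 and 310.2 CPM in CTRL 1 to 3. Tkt, the transketolase gene of the same branch, had 119, 123 and 69.0 CPM in CK1i 1 to 3, against 72.1, 101 and 143 CPM in CTRL 1 to 3, with CK1i 3 and CTRL 1 the low libraries. Taldo1 had 2.17 to 3.69 times the counts of Tkt.
Rpe, which encodes the ribulose phosphate epimerase, had 46.0 to 64.7 CPM. All of the 75-base windows of its last 500 bases also occur in Kansl1l, on the other strand (205 counts against 880). The part of these shared bases in the Rpe values was not tested. Log2 fold changes of the 7 genes ran from -0.19 ± 0.21 for G6pdx to 0.12 ± 0.15 for Pgls, and the smallest unadjusted p, that of G6pdx by edgeR, was 0.37.
Pgls overlaps Niban3, a gene on the same strand with 11289 counts. Of the 75-base windows in the last 500 bases of Pgls transcripts, 0% occur in another gene. The part of the overlap in the Pgls level was not tested.

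Over the 24 tested members, 12 had a higher value in CK1i and 12 a lower value, and 0 were called at adjusted p under 0.05, as were 0.0% of all tested genes. At an unadjusted p under 0.05, 2 members were lower (Pfkp and Pfkl) and 0 higher, where 2.0% of all tested genes were lower and 2.7% higher, or 4.7% in either direction. The median log2 fold change was 2.8e-05, against -0.0055 over all tested genes, and single members ran from -0.56 (Slc16a1) to 0.46 (Eno1).
DESeq2 called 5 genes, and no filter with edgeR 3, but none of the 32 in either; 473 genes had an unadjusted p under 0.05 by edgeR. An older form of the edgeR test with no filter called 76 genes, again none of the 32. By step, with none called, uptake and phosphorylation had 4 of 5 tested genes higher (median 0.16), fructose phosphates 3 of 3 lower (-0.47), lower glycolysis 3 of 5 higher (0.035), pyruvate and lactate 2 of 4 (-0.080) and the pentose phosphate pathway 3 of 7 (-0.025).
The median biological coefficient of variation, the spread between libraries beyond counting error, was 0.153 for the 24 and 0.151 for all tested genes.

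**Figure D4:**
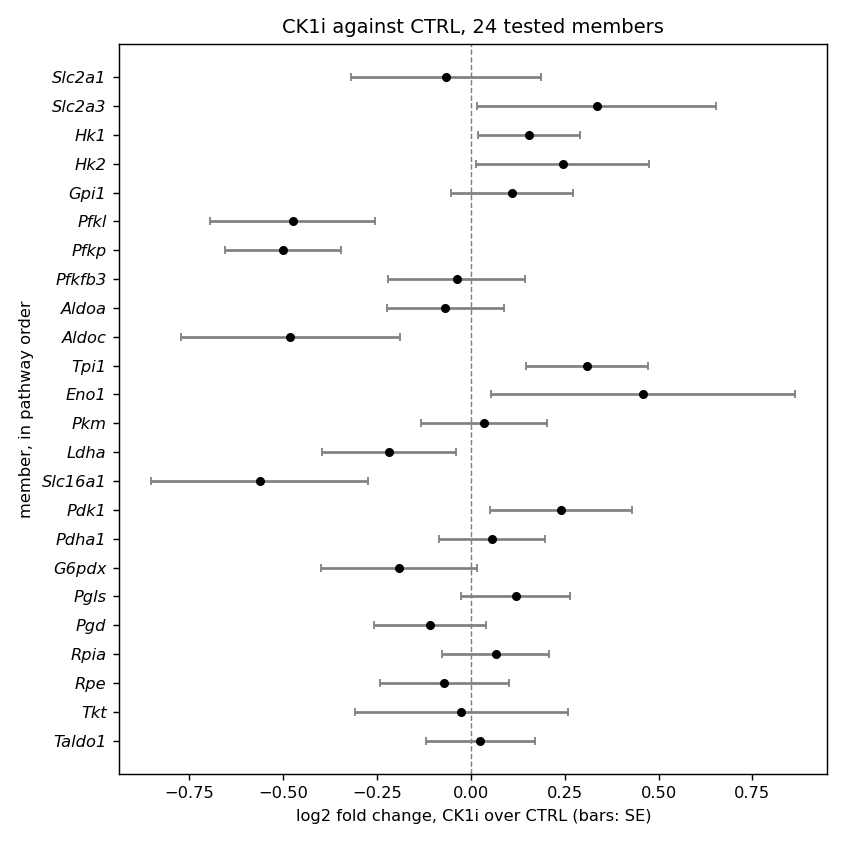
Log2 fold change of CK1i over CTRL for each of the 24 tested members, with bars for 1 standard error. Pfkp, Pfkl, Aldoc and Slc16a1 lie near -0.5, while Tpi1 and Eno1 lie at 0.31 and 0.46.

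Some members were low together in single libraries of both groups. In 6 of 24 members (25.0%), namely Aldoa, Ldha, Pgls, Pkm, Taldo1 and Tkt, CK1i 3 and CTRL 1 had the 2 lowest values, as they did in 10.5% of all tested genes. Of all pairs of libraries this was the most frequent among the members, and also over all tested genes. There the pair of CTRL 1 and CTRL 3 came next, at 9.15%. The pattern in the 6 members was noticed after the values were seen, and genes are not independent of each other. CTRL 1 had the lowest value in 8 of 24 members, and in 21.8% of all tested genes. CTRL 3 had the highest in 8 members and in 19.4% of all tested genes, and CK1i 1 the lowest in 0 members and in 15.3%.

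**Figure D5:**
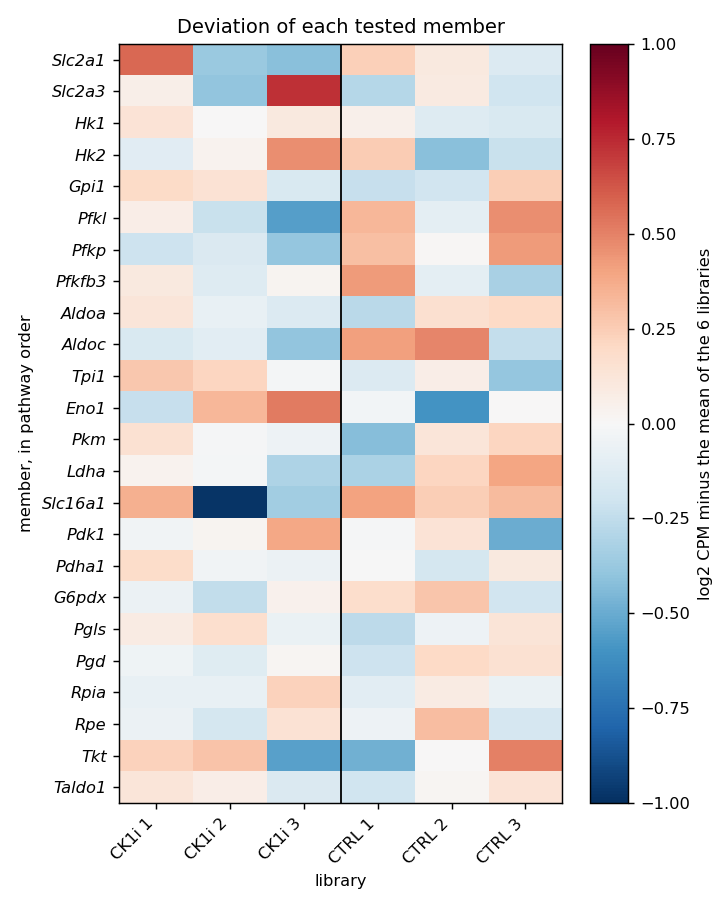
Deviation of each tested member from its own mean over the 6 libraries, in log2 CPM, as a colour by library, with CK1i left of the line and CTRL right of it. CTRL 1 is the lowest library for 8 of the 24 members and CK1i 3 for 5, and CTRL 3 is the highest for 8.

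No gene of the related lists was called either. Of 22 other isoenzymes, 10 had 0 counts in all libraries, among them Pklr, the liver pyruvate kinase gene, and 6 were tested, 3 higher and 3 lower with 0 called. Of these H6pd, an oxidative dehydrogenase of the endoplasmic reticulum, had a log2 fold change of 0.14 ± 0.19 and Pfkfb1 of 0.23 ± 0.38.
Side branches and regulators had 9 higher and 9 lower of 18 tested, led by Prps1, which makes the ribose pyrophosphate used for nucleotides (-0.22 ± 0.16), and Gpd2, of the glycerol phosphate shuttle (0.18 ± 0.13). The pyruvate dehydrogenase complex and its regulators had 5 higher and 4 lower of 9 tested, with Pdhx at 0.31 ± 0.20 and Pdp2 at -0.31 ± 0.22. The tricarboxylic acid cycle had 12 higher and 8 lower of 20, with Dlst at -0.20 ± 0.14 and Idh3a at 0.30 ± 0.20, and sources and users of NADPH had 6 and 6 of 12, with Hmox1 at -0.41 ± 0.41 and Txn1 at 0.14 ± 0.14. Hypoxia targets had 6 higher and 9 lower of 15 tested. Adm, which encodes adrenomedullin, had 224, 206 and 245 CPM in CK1i 1 to 3, against 271, 259 and 348 CPM in CTRL 1 to 3. All CK1i libraries lay below, as in 4.48% of all tested genes (log2 fold change -0.38 ± 0.15, edgeR unadjusted p = 0.024, adjusted p = 0.999). P4ha1, a collagen prolyl hydroxylase gene, had a log2 fold change of 0.43 ± 0.20 (edgeR unadjusted p = 0.0498, adjusted p = 0.999), with overlapping groups. Side branches and the tricarboxylic acid cycle each had 1 gene with all CK1i libraries above, as had 5.22% of all tested genes. All 22 cell division genes had higher values in CK1i, with a median log2 fold change of 0.62 and 0 called. Of them, 14 had an edgeR unadjusted p under 0.05, where 2.7% of all tested genes were higher at that p. Like the other lists, this one was chosen with earlier results of these data known, and genes are not independent of each other. Their summed level was 3172, 4203 and 3021 CPM in CK1i 1 to 3, against 1542, 2889 and 2636 CPM in CTRL 1 to 3. CTRL 1, which stood apart on the first principal component, was the lowest, and CK1i 3 was close to CTRL 2; the part of CTRL 1 in these values was not tested. Among them Ube2c, a mitotic ubiquitin ligase partner gene, had a log2 fold change of 1.44 ± 0.29, and Ccnb2, a mitotic cyclin gene, of 0.97 ± 0.22.

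Promoters of 31 members were in the RefSeq table, 45 windows of 300 bases in all; Slc2a3 had none. Read on both strands, ACGTG was in 42.2% of the member windows and 19.6% of all 32851 windows, GCGTG in 57.8% and 32.4%, and CACGTG, which contains ACGTG, in 8.89% and 7.15%. One or the other of the first pair was in 77.8% of the member windows and 43.8% of all windows. Base composition was not matched, several windows of 1 gene overlap, and letter matches are not sites of binding.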

How the data were processed

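The values are counts per gene, whole numbers that the authors deposited and made from reads of QuantSeq 3' forward libraries with a unique molecular identifier module (75 bases, single end), per the labels. The submitters' processing notes name STAR 2.7.3a, featureCounts 1.6.3, UMI-tools 1.1.1 and the build GRCm38.p6. Whether identifiers were collapsed, how reads with several matches were treated and the strand setting are not given in the sources used here, so intervals and floors cover counting error only. All 6 libraries carry the same batch label.

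Genes were filtered with filterByExpr (minimum count 10, minimum total 15) and scaled by TMM. CK1i was compared with CTRL in edgeR 4.0.16 under R 4.3.3 by the robust quasi-likelihood test, two-sided, with Benjamini-Hochberg adjustment over 10067 genes. The test was run first in its older (legacy) form and then in the bias-adjusted form reported here. The choice between them was made after results were known, and both are compared under the alternatives. An SE is the size of the log2 fold change divided by the root of F. DESeq2 1.42.0 and limma 3.58.1 were alternatives. Copies were searched with blastn 2.17.0 in GENCODE M21. The edgeR fit was tested on simulated counts, with larger changes than those of the members and the same spread for all genes. That run does not show whether changes as small as those of the members could be found.

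The members and all lists were chosen with earlier results of these data known. Values in every library are given for up to 5 members with the smallest p in each direction and for isoenzyme families, and other lists give the 2 smallest p. Those of Pfkfb3, Pkm, Rpia, Taldo1, Tkt and Gapdh fall outside this rule and were added with the values known. Of the identifiers, 54165 matched GENCODE and 67 did not.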

Additional observations from a re-analysis of the deposited data

How the results depend on the processing

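Members called stayed at 0 under every alternative run. The number of all genes called was 0, against 3 with no filter on low counts, 5 with DESeq2, 0 to 1 when each library was left out in turn, 0 in the older (legacy) form of edgeR's test and 76 in that form with no filter (57 higher and 19 lower). The legacy form was the form run first and was kept as an alternative chosen after seeing the data, like the omission of CK1i 3 and CTRL 1 together. The count of calls over all genes therefore depends on the filter and the form of the test, and the cause was not tested. The unadjusted p of Pfkl was 0.05042 in the legacy form, 0.095 with DESeq2 and 0.055 with limma-voom.

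Of 358 member values under 15 alternatives, 335 kept their direction and 23 turned, all of them when libraries were left out, in 10 members that were not called. Leaving out each library in turn gave log2 fold changes of -0.47 to 0.097 for Slc2a1, -0.032 to 0.58 for Slc2a3, -0.19 to 0.21 for Pfkfb3, -0.21 to 0.019 for Aldoa, -0.14 to 0.16 for Pkm, -0.027 to 0.12 for Pdha1, -0.050 to 0.12 for Rpia, -0.17 to 0.073 for Rpe, -0.24 to 0.26 for Tkt and -0.065 to 0.11 for Taldo1. Without CK1i 3 and CTRL 1 together the values were 0.20 for Slc2a1, -0.099 for Slc2a3, 0.20 for Pfkfb3, -0.093 for Pkm and -0.074 for Rpia. The members' median stayed between -0.045 and 0.060.

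The difference in share, CK1i minus CTRL in percentage points, ran over the left-out libraries from -7.38 to 0.514 for Slc2a1, -3.15 to 0.586 for Hk1, -1.44 to 1.57 for Pfkl and 0 to 0.725 for Slc16a1. Without CK1i 3 and CTRL 1 together it was 1.62 for Slc2a1. No paired analysis was possible because the labels give the groups no shared replicate numbers.

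With 3 libraries a group, the median SE of 0.175 per member sets the precision, and the 8 members with few counts were not tested.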
